A study of Mus musculus with 4 samples.

Results

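The loci of 5 core pluripotency genes, Pou5f1, Nanog, Sox2, Klf4 and Esrrb, were examined for DNA methylation in mouse embryonic stem cells sorted by the activity of the Zscan4c promoter. The members were the CCGG sites inside a fixed mm9 window around each gene and in the 100 kb on either side of it. This gave 1246 of the 1594137 CCGG sites in the series (0.0782%), of which 281 lay in the gene windows and 965 in the flanks. Position alone defined them and no tag count entered the rule, but earlier results of these data were known when they were chosen. Gene windows and flanks were kept apart. "Low flank" and "high flank" name the flanks at lower and higher coordinates.

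The cells were MC1-ZE7, an embryonic stem cell line of strain 129S6/SvEvTac at passage 31, grown without feeder cells in medium with serum and leukemia inhibitory factor. All cells carried Emerald, a green fluorescent protein, driven by the Zscan4c promoter. The Emerald-high fraction and the Emerald-negative fraction were sorted from such cultures, and DNA of each was cut with HpaII and, separately, with MspI, which gave 4 libraries with 1 library in each group. Emerald reports only on the reporter's promoter, and no RNA was measured here, so the expression of the 5 genes in the sorted cells was not tested. With no replicate library, the intervals below cover counting error only and say nothing of the spread between sorts or cultures.

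Pou5f1 encodes Oct4, a POU-domain transcription factor, and Sox2 encodes an HMG-box factor that binds DNA together with it. Nanog is a homeobox factor, Klf4 a zinc finger factor, and Esrrb an orphan nuclear receptor that is active in naive embryonic stem cells. The 5 factors sustain self-renewal of embryonic stem cells. Pou5f1 and Nanog are shut off as these cells differentiate, with methylation of their promoters, while Sox2 and Klf4 are also active in some differentiated lineages. HpaII cuts CCGG only when its central CG is unmethylated, and MspI cuts it in either state, so many HpaII tags beside few MspI tags mark a site with little methylation.

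The assay reads a locus only where it holds CCGG. The RefSeq promoters of the 5 genes are shown because they differ in how many such sites they offer. Each runs from 250 bases before to 50 bases after the first start listed for the gene, 5′ to 3′ along the gene, in build GRCm38.p6, with CCGG in capitals. They lie at chr17:35505782-35506081 (Pou5f1, plus strand), chr6:122707239-122707538 (Nanog, plus), chr3:34649745-34650044 (Sox2, plus), chr4:55532426-55532725 (Klf4, minus) and chr12:86360867-86361166 (Esrrb, plus). These GRCm38 positions are not those of the tag files, which use mm9.
Pou5f1: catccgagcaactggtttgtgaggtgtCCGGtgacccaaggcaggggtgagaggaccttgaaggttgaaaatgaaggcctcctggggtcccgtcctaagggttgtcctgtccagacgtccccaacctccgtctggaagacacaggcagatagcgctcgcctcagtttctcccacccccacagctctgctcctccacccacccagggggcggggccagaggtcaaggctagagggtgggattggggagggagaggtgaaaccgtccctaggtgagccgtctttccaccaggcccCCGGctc
Nanog: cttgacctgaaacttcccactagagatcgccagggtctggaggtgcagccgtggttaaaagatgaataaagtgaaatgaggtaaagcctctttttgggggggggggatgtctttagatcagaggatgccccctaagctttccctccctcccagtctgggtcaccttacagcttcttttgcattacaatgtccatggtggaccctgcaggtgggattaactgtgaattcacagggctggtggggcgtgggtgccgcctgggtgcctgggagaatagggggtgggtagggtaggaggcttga
Sox2: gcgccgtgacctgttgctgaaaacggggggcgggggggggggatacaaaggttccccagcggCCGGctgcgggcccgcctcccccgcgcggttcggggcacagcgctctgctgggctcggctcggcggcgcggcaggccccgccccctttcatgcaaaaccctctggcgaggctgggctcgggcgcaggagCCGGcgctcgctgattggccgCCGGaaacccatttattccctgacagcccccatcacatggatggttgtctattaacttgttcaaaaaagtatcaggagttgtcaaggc
Klf4: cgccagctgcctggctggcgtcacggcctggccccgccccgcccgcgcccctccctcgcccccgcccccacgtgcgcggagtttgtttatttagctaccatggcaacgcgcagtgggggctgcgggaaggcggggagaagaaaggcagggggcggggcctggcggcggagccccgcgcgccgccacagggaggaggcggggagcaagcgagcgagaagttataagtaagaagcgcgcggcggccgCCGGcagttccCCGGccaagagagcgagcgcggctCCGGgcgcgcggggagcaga
Esrrb: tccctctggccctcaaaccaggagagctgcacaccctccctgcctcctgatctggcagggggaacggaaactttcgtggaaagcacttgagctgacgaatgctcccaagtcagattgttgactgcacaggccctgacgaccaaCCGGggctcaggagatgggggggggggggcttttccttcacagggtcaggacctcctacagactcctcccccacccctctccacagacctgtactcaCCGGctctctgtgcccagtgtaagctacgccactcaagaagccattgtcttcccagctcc

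The Nanog promoter holds no CCGG and could not be read at all. Pou5f1 and Esrrb hold 2 each, and Sox2 and Klf4 hold 3 each. CCGG, whose reverse complement is the same letters, occurs in 52.8% of the 32851 promoters in that RefSeq table, and 21.1% hold at least 3. Pou5f1, Nanog and Esrrb have a further listed promoter each, with 0, 0 and 1 CCGG. The windows themselves also differ in CCGG density. Sox2 has 26 sites in its 4000 bp window (6.5 per kb) and Klf4 has 35 in 6000 bp (5.83 per kb). Pou5f1 has 16 in 6000 bp (2.67 per kb), Esrrb has 200 in 163000 bp (1.23 per kb) and Nanog has 4 in 8000 bp (0.5 per kb).

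Library totals ran from 5662614 tags (Emerald-high HpaII) to 9535691 (Emerald-negative HpaII), and the members held 0.153% and 0.164% of these. MspI totals were 9372711 (Emerald-high) and 9307616 (Emerald-negative). Of the 1246 member sites, 136 had no tag in any library, a share of 10.9% against 24.2% of all sites. At 72 member sites some tags were fractions, as when a tag fits several places, and 56 of these 72 lay in the low flank of Pou5f1, where RefSeq lists the similar class I genes H2-Q6, H2-Q7 and H2-Q10. The line was labelled as embryonic stem cells, and genomic tags offer no expression markers to check that label.

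The measure of level was the HpaII/MspI ratio, tags scaled to each library's total, so that 1 is the average of the library. The 5 windows as a whole stood at 2.26 (95% Poisson interval 2.13 to 2.39) in Emerald-negative cells and 2.02 (1.90 to 2.16) in Emerald-high cells. The 10 flanks stood at 1.72 (1.67 to 1.77) and 1.65 (1.59 to 1.71). HpaII thus cut both windows and flanks more than the average CCGG site in each fraction. Each of the 5 windows was above its own 2 flanks combined, in both fractions. Esrrb held 1378 of the 1748.7 Emerald-negative MspI tags in the windows, so the pooled window values rest largely on it.

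Because HpaII cuts clustered CCGG more, each stretch was set beside the ratio expected if its sites had the genome-wide ratio of their density class, weighted by MspI tags. A site's class is the number of CCGG, its own counted, that lie no more than 500 bp away. A site alone is called isolated, a site in a group of 10 or more is called dense, which is the spacing of CpG islands, and 2 to 4 and 5 to 9 are the classes between them. Isolated sites in the windows stood at 1.204 (1.06 to 1.37) in Emerald-negative cells and those in the flanks at 0.93 (0.88 to 0.99), against 0.51 for all isolated sites. Sites with 2 to 4 CCGG stood at 1.71 (1.57 to 1.85) in windows and 1.59 (1.53 to 1.67) in flanks, against 0.75 for all. Sites with 5 to 9 stood at 4.43 (3.90 to 5.04) in windows and 3.02 (2.76 to 3.30) in flanks, against 3.24. Dense sites lay below the genome, at 4.29 (3.59 to 5.11) in windows and 4.88 (4.40 to 5.42) in flanks, against 5.54. In Emerald-high cells dense window sites stood at 3.47 (2.85 to 4.22), against 3.36. In Emerald-negative cells isolated sites and sites with 2 to 4 CCGG were thus above their genome-wide ratio in windows and flanks, and sites with 5 to 9 in windows but not in flanks. The window classes are not an even mix of the genes. Esrrb held 59 of the 61 isolated window sites, 105 of the 125 with 2 to 4 and 36 of the 54 with 5 to 9. All 41 dense window sites were from Sox2 (21) and Klf4 (20). Of the 57 dense flank sites, 38 lay in the low flank of Pou5f1 and 19 in the high flank of Nanog. In that Pou5f1 flank 56 of 113 sites had shared tags, and some repeat the counts of others. The tags behind the dense flank value are thus not all separate measurements, which its interval does not take into account.

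**Figure D1:**
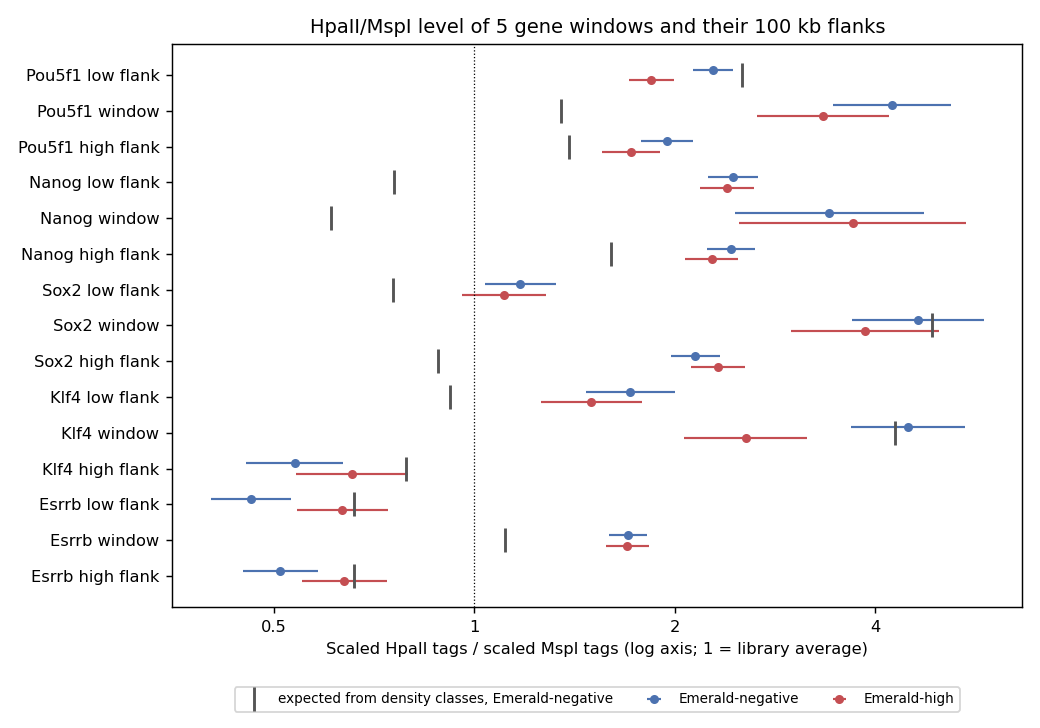
HpaII/MspI ratio (log axis; 1 is the library average) of the gene window and the low- and high-coordinate 100 kb flank of each gene, with 95% Poisson intervals for Emerald-negative (blue) and Emerald-high (red) cells; grey ticks give the Emerald-negative ratio expected from the density classes. Pou5f1 and Nanog windows lie far right of their ticks, Sox2 and Klf4 windows near theirs in Emerald-negative cells, and the Esrrb flanks left of theirs.

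Pou5f1 (chr17:35642000-35648000, mm9) had no dense site, yet its window was among the most cut. Its 16 sites held 489 (Emerald-negative) and 223 (Emerald-high) HpaII tags, beside 112.5 and 110.5 MspI tags. The ratios were 4.24 (3.46 to 5.21) and 3.34 (2.66 to 4.20), against 1.35 and 1.18 expected from density. All 16 sites had an HpaII tag in Emerald-high cells and 15 of 16 in Emerald-negative cells. The site with most MspI tags, at 35643590, had 101 (Emerald-negative) and 46 (Emerald-high) HpaII tags and 18 MspI tags in each. Its score was 88.5 and 85.2 on a scale of 0 (no HpaII tag) to 100, where 50 means equal scaled tags.

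Nanog (chr6:122657000-122665000) rests on very few sites. All 4 are given. The site at 122658101 had 74 (Emerald-negative) and 32 (Emerald-high) HpaII tags, beside 11 and 17 MspI tags. Its neighbour at 122658138 had 17 and 15 HpaII tags, beside 5 and 1. At 122660900 there were only 2.5 shared HpaII tags, in the Emerald-high library. The site at 122664758, near the high end of the window, had 70 and 31 HpaII tags, beside 30 and 18 MspI tags. The 3 tagged sites in both fractions were thus all cut by HpaII, and the window's ratios of 3.42 (2.46 to 4.74) and 3.70 (2.50 to 5.48) overlapped widely. Density alone gave 0.61 and 0.75.

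Sox2 (chr3:34548000-34552000) had 21 dense sites of 26. Its window held 428 (Emerald-negative) and 196 (Emerald-high) HpaII tags and 90 and 84 MspI tags. The ratios, 4.64 (3.70 to 5.83) and 3.86 (2.99 to 4.99), lay near the 4.87 expected from density in Emerald-negative cells and above the 3.01 expected in Emerald-high cells, where the interval only just included it. MspI tags were thin in the cluster: 1 of 26 sites reached 10 tags in each MspI library. That site, at 34549500, had 62 and 32 HpaII tags beside 18 and 22 MspI tags, and scores of 81.6 and 74.9.

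Klf4 (chr4:55540000-55546000) had 20 dense sites of 35. It held 561 HpaII tags in Emerald-negative cells but 218.8 in Emerald-high cells, beside 122.2 and 141.7 MspI tags. Its ratio was 4.48 (3.69 to 5.45) in Emerald-negative cells, close to the expected 4.29, and 2.56 (2.07 to 3.16) in Emerald-high cells, where 2.76 was expected. Here alone among the windows the 2 intervals did not overlap. The site with most MspI tags, at 55542685, had 81 and 22 HpaII tags beside 11 and 13 MspI tags, and scores of 91.2 and 78.2.

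Esrrb (chr12:87700000-87863000) is a long gene, and its 200 sites averaged less. The window held 2405.5 and 1383 HpaII tags and 1378 and 1347 MspI tags, and both ratios were 1.70 (1.59 to 1.82 for Emerald-negative, 1.58 to 1.83 for Emerald-high), above the expected 1.11 and 1.04. The 4 sites with most MspI tags were rarely cut. At 87861229 there were 8 HpaII tags in each fraction beside 29 MspI tags in each, and at 87860646 there were 10 (Emerald-negative) and 8 (Emerald-high) beside 25 and 24. At 87803033 there were 1 and 4 HpaII tags beside 25 and 31. At 87751722 there was 1 HpaII tag in Emerald-negative cells and 0 in Emerald-high cells, beside 29 and 19 MspI tags, which is too few to show a difference.

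CCGG sites of the promoters were found by searching each gene's mm9 window for the same spacing between neighbouring sites, which occurred once in the window for Pou5f1, Sox2, Klf4 and Esrrb. The same spacing also occurs elsewhere in the genome, so the placement rests on the window. The 2 Pou5f1 sites (35642755 and 35643021) held 30 (Emerald-negative) and 15 (Emerald-high) HpaII tags, beside 12 and 5 MspI tags. The 3 Sox2 sites held 28 and 10, beside 7 and 13. The 3 Klf4 sites held 19 and 12, beside 2 and 1. The 2 Esrrb sites held 9 and 4, beside 11 and 9, all of the HpaII tags at 87702058 and none at 87701961. These belong to the first listed Esrrb promoter only. The further Esrrb promoter holds 1 CCGG, which gives no spacing to search for, so it was not placed and its cutting was not read. The Pou5f1, Sox2 and Klf4 promoters were therefore cut by HpaII in both fractions. Together the 10 sites had ratios of 2.62 (1.75 to 3.94) and 2.42 (1.499 to 3.92) and a log2 difference of -0.11 (-1.02 to 0.79), an interval too wide to give a direction.

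The flanks separated the loci further. Both Nanog flanks were far more cut than density gave, at 2.45 (2.24 to 2.67) on the low and 2.43 (2.24 to 2.64) on the high side in Emerald-negative cells, against 0.76 and 1.605. RefSeq lists Gdf3, a growth factor gene, and Dppa3, a gene of germ cells and early embryos, on the low side and the glucose transporter gene Slc2a3 on the high side. The high flank of Sox2 stood at 2.15 (1.98 to 2.34) against an expected 0.88, while its low flank stood at 1.17 (1.04 to 1.33) against 0.76. RefSeq places the long noncoding RNA gene Sox2ot across Sox2 and lists no protein-coding neighbour. The Pou5f1 flanks had 2.29 (2.14 to 2.45) on the low and 1.95 (1.78 to 2.13) on the high side, against 2.52 and 1.39. No mm9 annotation was used here, so sites were not assigned to these neighbours.

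Klf4 and Esrrb had the least cut surroundings. The high flank of Klf4 stood at 0.54 (0.45 to 0.64) and its low flank at 1.72 (1.47 to 2.00) in Emerald-negative cells. Density gave 0.79 and 0.92, so the high flank lay below its expected ratio and the low flank above it. The Esrrb flanks stood at 0.46 (0.40 to 0.53) and 0.51 (0.45 to 0.58), below the 0.66 expected from density. In Emerald-negative cells the step from window to flanks was 4.43-fold (3.54 to 5.54) at Klf4, 3.49-fold (3.11 to 3.92) at Esrrb, 2.59-fold (2.05 to 3.29) at Sox2, 1.96-fold (1.59 to 2.43) at Pou5f1 and 1.40-fold (1.00 to 1.96) at Nanog. In Emerald-high cells Esrrb came before Klf4, at 2.67-fold (2.34 to 3.04) and 2.52-fold (1.97 to 3.22) with overlapping intervals, followed by 2.08-fold at Sox2, 1.86-fold at Pou5f1 and 1.59-fold at Nanog. These steps were not corrected for density, which gave another order. In Emerald-negative cells density gave 4.87 for the window and 0.84 for both flanks at Sox2, and 4.29 and 0.84 at Klf4. It gave 1.11 and 0.66 at Esrrb. At Pou5f1 (1.35 and 2.09) and at Nanog it put the window below the flanks. The Emerald-negative steps at Pou5f1, Nanog and Esrrb thus exceeded those from density, and the steps at Klf4 and Sox2 did not.

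Fractions were compared on the log2 scale by subtracting the Emerald-negative from the Emerald-high HpaII/MspI ratio, so that a negative value means relatively less HpaII cutting in Emerald-high cells. The 5 windows together gave -0.16 (-0.28 to -0.04), with the MspI libraries differing by -0.03, and the 10 flanks gave -0.06 (-0.13 to 0.01). The sign for the windows rests on scaling to library totals: scaled to dense sites it was 0.56, and scaled to isolated sites -0.64. In the second of the 2 deposited parts of each tag count the interval included 0 (-0.12, -0.30 to 0.05). Pooled, the windows and flanks did not differ beyond counting error, at -0.10 (-0.24 to 0.04), a comparison that does not depend on the scaling. The pooled sums weigh the genes unlike. Of the Emerald-negative MspI tags, Esrrb held 1378 of 1748.7 in the windows but 1268 of 6577.6 in the flanks. Gene by gene the interval excluded 0 at Klf4, -0.82 (-1.30 to -0.34), and at Esrrb, -0.39 (-0.64 to -0.13). It included 0 at Pou5f1, Nanog and Sox2. Of the 15 stretches, 11 had an interval that included 0, 2 lay below it and 2 above.

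Klf4 showed the lowest value of any stretch. Its window stood at -0.81 (-1.23 to -0.39), with HpaII tags at -0.61 and MspI tags at 0.20, against -0.63 expected from density. Scaled to dense sites it was -0.09 (-0.51 to 0.33). Against its own flanks, free of scaling, it stood at -0.82 (-1.30 to -0.34), the step from window to flanks being 2.52-fold (Emerald-high) and 4.43-fold (Emerald-negative). Density gave -0.63 for the window and 0.07 for its flanks together, so it also put the window below the flanks. The other windows gave -0.35 (-0.79 to 0.10) at Pou5f1, -0.27 (-0.76 to 0.23) at Sox2, 0.12 (-0.62 to 0.85) at Nanog and 0.00 (-0.15 to 0.14) at Esrrb. Each of these 4 intervals included 0. Whether Klf4 differs from the other windows was not tested.

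Esrrb moved the other way outside the gene. Its low flank gave 0.46 (0.15 to 0.76), with 291 HpaII tags in Emerald-negative and 212 in the shallower Emerald-high library beside 614 and 553 MspI tags. Its high flank gave 0.32 (0.04 to 0.60), from 343 and 248 HpaII tags beside 654 and 643 MspI tags, and without its most tagged site 0.26 (-0.03 to 0.54). Scaled to isolated sites both turned below 0, to -0.027 and -0.16. The density classes gave 0.22 for both, within both intervals. Window and flanks of Esrrb differed by -0.39 (-0.64 to -0.13). Density gave -0.09 for the window and 0.22 for its flanks together, so it also put the window below the flanks. The low flank of Pou5f1 was lower, -0.31 (-0.46 to -0.16), but 38 of its 113 sites were dense and -0.50 was expected from that. With only its sites of whole tags the value was -0.25 (-0.52 to 0.02).

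**Figure D2:**
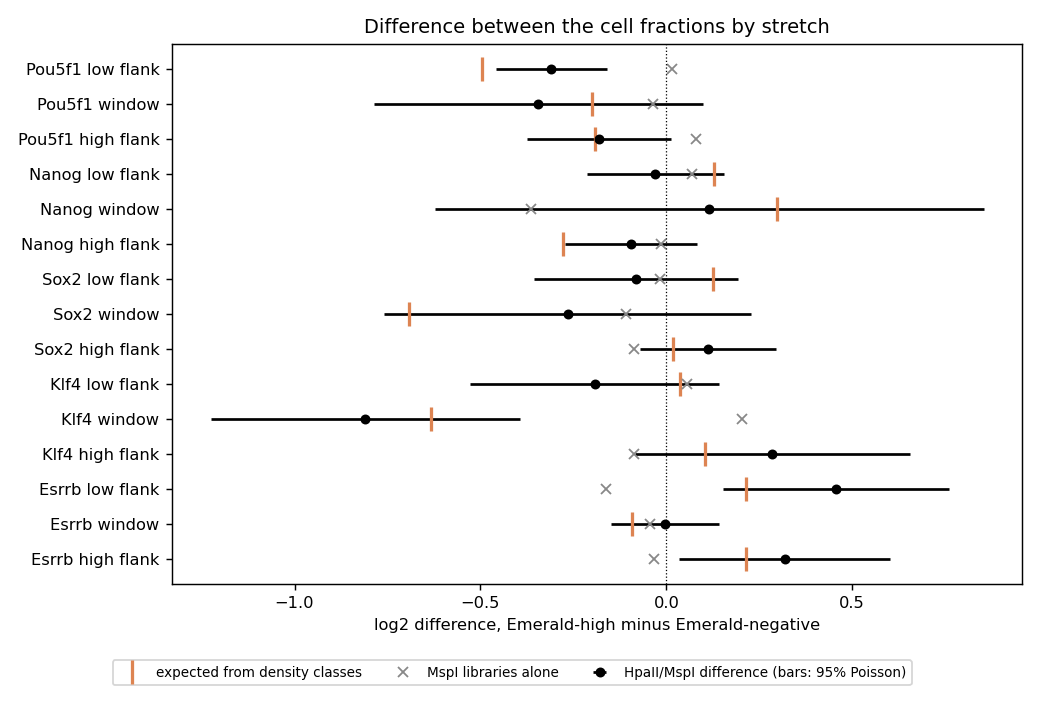
Log2 HpaII/MspI difference, Emerald-high minus Emerald-negative, for each gene window and flank with 95% Poisson intervals (black), the difference expected from density classes (orange ticks) and the difference of the MspI libraries alone (grey crosses). The Klf4 window and Pou5f1 low flank lie below 0, both Esrrb flanks above 0, and the other 11 intervals include 0.

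A finer view came from 10 kb bins with at least 20 tags in each MspI library, of which 106 had their centre in a locus. In Emerald-negative cells their median ratio was 1.01, against 0.42 over all 126106 bins, and 34 of 106 (32.1%) exceeded 2, against 14.0% of all bins. Nanog had 11 of 21 bins above 2 and only 1 under 0.5. Klf4 had 3 of 14 above 2 and 9 (64.3%) under 0.5, the latter near the 55.8% of all bins. Of these 9, 7 were the bins of its high flank. Inside Esrrb the 16 bins ran from 0.04 to 4.63. The bins at its low end stood at 0.42 and 0.04, and a run of 40 kb at 87810001 to 87850000 held the 4 bins above 3, at 3.18 to 4.63 (Emerald-negative) and 2.50 to 3.47 (Emerald-high). Outside this run, the bin at 87760001 to 87770000 stood at 2.72 (Emerald-negative) and 2.24 (Emerald-high).

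**Figure D3:**
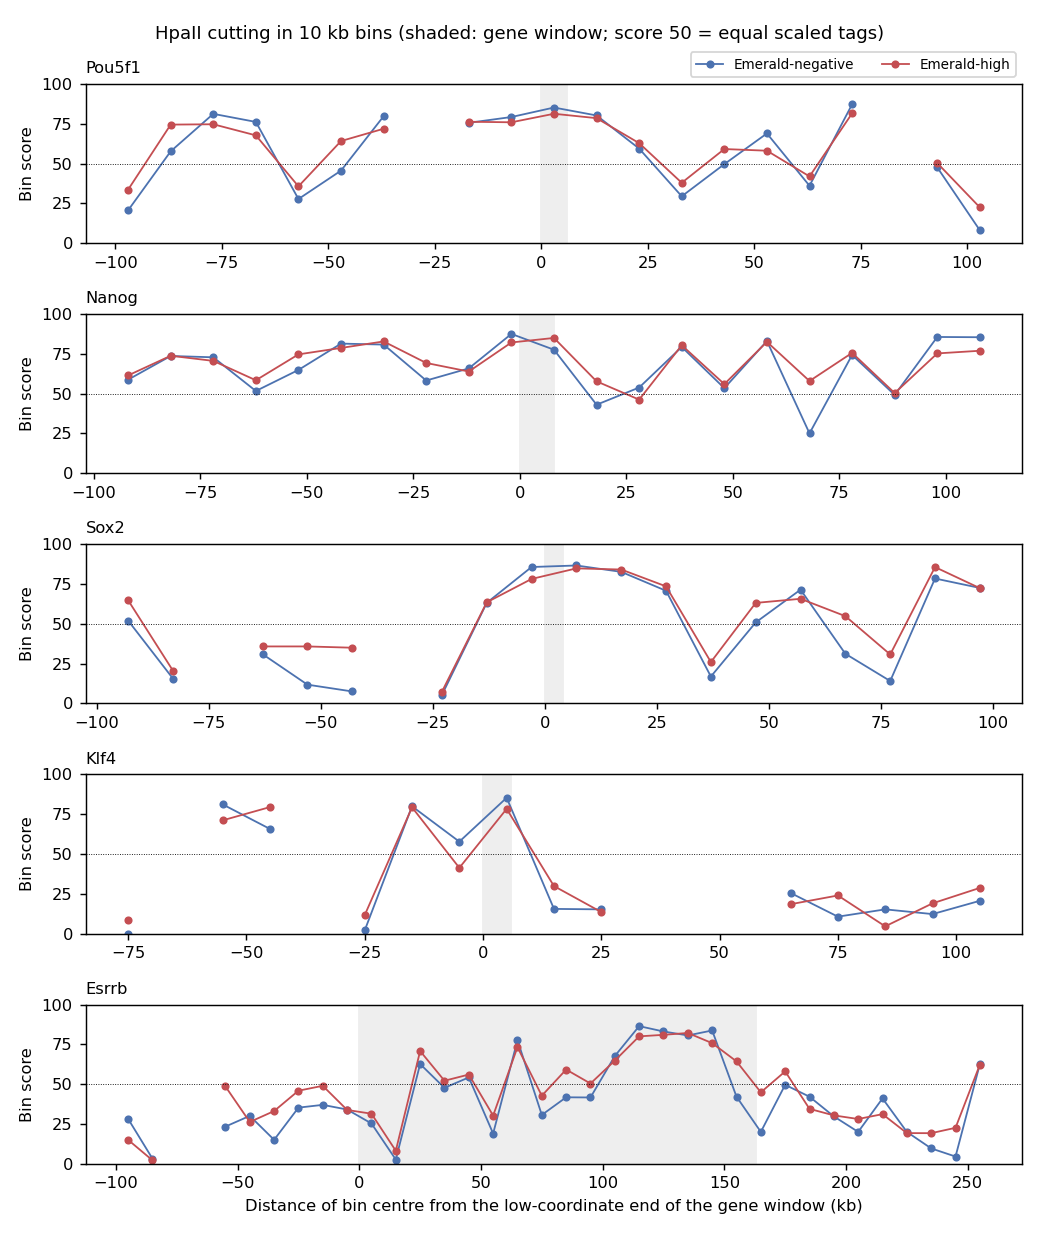
Bin score, 0 (no HpaII tag) to 100, of 10 kb bins along each locus against the distance of the bin centre from the low-coordinate end of the gene window (kb), for Emerald-negative (blue) and Emerald-high (red) cells; the window is shaded, and lines break where a bin had too few MspI tags. In Emerald-negative cells the highest Klf4 bin is the one over its window. The highest Sox2 bin holds the high part of its window, with its centre in the flank. In Emerald-high cells the highest bin of each lies further out, by a small margin. Its ratio was 4.36 at Sox2, against 4.12 for the bin named before, and 3.00 at Klf4, against 2.83. Within Esrrb the run of 40 kb holds the 4 highest bins in both fractions.

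Bins were tested by Fisher's exact test, two-sided, on their HpaII and MspI tags, with Benjamini-Hochberg adjustment over all bins. With 1 library a group this says whether libraries differ, not conditions. A call needed an adjusted p under 0.05 and at least a 2-fold change with a pseudocount of 1 tag. It was met by 3 of 106 member bins as higher in Emerald-high cells (2.83%; 2.91% of all bins) and by 0 as lower (0.38% of all bins). These shares are near the background or below it. Past 2-fold without a test were 17 higher (16.04%; 26.3% of all bins) and 0 lower (1.41%). At an unadjusted p under 0.05, 10 member bins were higher and 10 lower. The median log2 difference of member bins was 0.16, against 0.44 over all bins.

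All 3 called bins belonged to Esrrb. The bin at 87860001 to 87870000, which straddles the end of the gene window, had 39 (Emerald-negative) and 55 (Emerald-high) HpaII tags beside 117 and 107 MspI tags. Its difference was 1.38 with an SE of 0.36 (Fisher's exact test, adjusted p = 0.0102). In the low flank, 87640001 to 87650000 had 39 and 56 HpaII tags beside 99 and 97 MspI tags. Its difference was 1.30 with an SE of 0.36 (Fisher's exact test, adjusted p = 0.0205). In the high flank, 87940001 to 87950000 had 8 and 15 HpaII tags beside 109 and 67 MspI tags. Its difference was 2.29 with an SE of 0.67 (Fisher's exact test, adjusted p = 0.0216), and its MspI libraries differed by -0.70. No member bin was called in bins of 20 kb.

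Bins with CpG-island spacing all lay on the lower side. Of the 8 member bins with a dense site, 0 were above 0 (11.2% of all such bins were), with a median of -0.55 against -0.45 for all. Among them were the Pou5f1 low flank bins starting at 35560001, 35570001 and 35600001, with shared tags at 16, 16 and 8 sites. Some of their sites repeat each other's counts, so the 8 bins are not all separate measurements. By adjusted p alone 5 member bins were lower (1.5% of all bins) and 3 higher (2.97%), and each of the 5 held a dense cluster. They were the bin over the Klf4 window (-0.59), the bin that holds the low part of the Sox2 window (-0.64), the end of the high flank of Nanog (-0.70), and 2 bins of the low flank of Pou5f1 (-0.46 and -0.50). In each of these Pou5f1 bins 16 sites had shared tags, and sites of one bin repeat the counts of sites of the other, so they are not separate measurements. With sites of whole tags alone 3 member bins were lower by adjusted p.

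By the rule for named bins, the highest and lowest were also taken in each locus among bins with an MspI difference within 0.5 on the log2 scale. The values above 1 among them rested on few HpaII tags. The highest at Sox2, 34490001 to 34500000 in the low flank, had 10 and 16 HpaII tags (Emerald-negative first) and a difference of 1.69. The highest at Esrrb, 87710001 to 87720000 within the gene, had 3 and 5 (1.47). At Pou5f1, 35740001 to 35750000 had 3 and 6 (1.35), and at Klf4, 55460001 to 55470000 had 0 and 2, too few for a fold. Nanog's highest, 122670001 to 122680000 in the high flank, had 51 and 51 (0.67). The lowest were -0.54 at Pou5f1 (35710001 to 35720000), -0.66 at Klf4 (55480001 to 55490000) and -0.61 within Esrrb (87840001 to 87850000), and, at Nanog and Sox2, the dense bins above. Adjusted p was 0.114 or more for all of these but the Nanog and Sox2 dense bins (Fisher's exact test).

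Single sites were scored where each MspI library had at least 10 tags, which 224 of 1246 member sites did (36 in windows, 188 in flanks). Their median score was 38.0 (Emerald-negative) and 44.3 (Emerald-high), against 14.4 and 27.0 over all 218697 covered sites. Scores under 20 were found at 83 member sites in Emerald-negative cells (37.1%; 57.6% of all covered sites) and 52 in Emerald-high cells (23.2%; 39.6%). No HpaII tag was seen at 20 (8.93%, exact interval 5.54 to 13.5) and 11 (4.91%, 2.48 to 8.62), against 15.6% and 9.80% of all covered sites, although the Emerald-high library was shallower. Emerald-high cells scored above Emerald-negative cells at 125 sites (55.8%) and below them at 97, against 65.4% above over all covered sites.

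Among the loci, Nanog had the highest median score, 72.6 (Emerald-negative) and 67.6 (Emerald-high) over 45 sites, followed by Pou5f1 with 69.0 and 63.6 over 55. Sox2 had 43.9 and 51.7 over 37 sites, Esrrb 17.3 and 27.3 over 69, and Klf4 12.2 and 21.8 over 18, of which 17 lay in its flanks. The gene windows gave only 1 of these sites each at Pou5f1, Sox2 and Klf4, 2 at Nanog and 31 at Esrrb. Apart from Esrrb, the medians thus describe almost only the flanks. At Pou5f1, 35 of the 55 sites lay in the low flank, many with shared tags and some with repeated counts. The intervals of the Nanog medians overlapped widely (45.9 to 77.7 and 44.0 to 79.2), and site by site 25 of its scores were higher and 20 lower in Emerald-high cells. Isolated member sites (70) had medians of 19.96 and 33.6, and those with 2 to 4 CCGG (112) had 28.2 and 38.5. The 15 dense member sites had 84.9 and 78.8, and each scored lower in Emerald-high cells (70.1% of all 3756 dense covered sites did). They are not 15 separate measurements: 14 lay in the low flank of Pou5f1 and had shared tags, and 8 of these were 4 pairs with the same counts in all 4 libraries. The only one with whole tags was the Sox2 site.

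No member site passed the site test (adjusted p under 0.05 and 2-fold), where 0.102% of all covered sites were called higher and 0.0297% lower. By adjusted p alone none passed either, against 0.106% higher and 0.0576% lower of all. The smallest adjusted p among members was 0.107 (Fisher's exact test), and at an unadjusted p under 0.05, 12 were higher and 6 lower. Past 2-fold without a test were 64 member sites higher (28.6%; 38.4% of all covered sites) and 17 lower (7.59%; 4.36%). In windows these were 11 and 4 of 36. Of the 17 lower sites, 6 lay in the low flank of Pou5f1. Each of the 6 had shared tags, and they include a pair with the same counts. The pseudocount adds to the higher side because the Emerald-high HpaII library is the shallower. With a pseudocount in proportion to depth the members counted 57 and 22, against 32.3% and 7.11% of all covered sites.

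**Figure D4:**
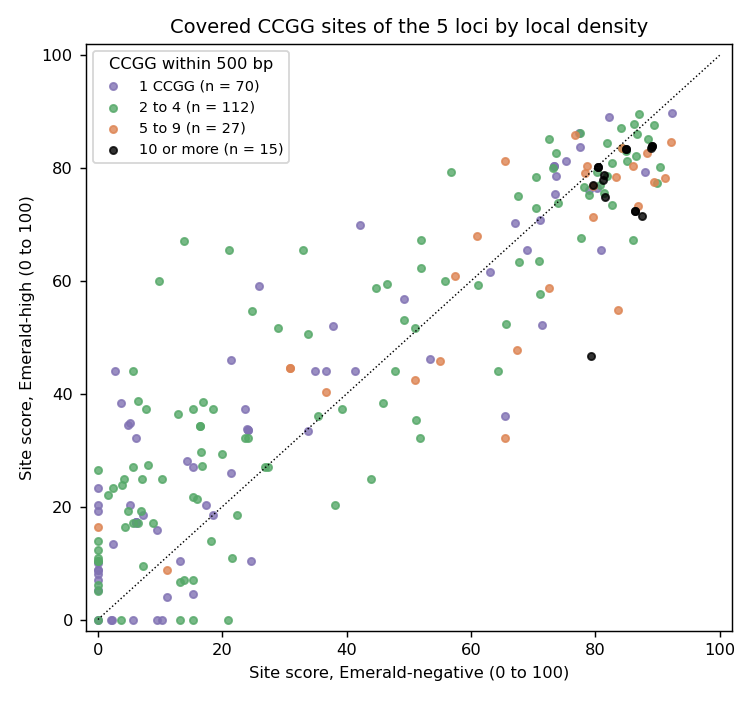
Site score in Emerald-high against Emerald-negative cells for the 224 covered CCGG sites of the loci, coloured by the number of CCGG within 500 bp; the dotted line marks equal scores. Of the 224 sites, 125 lie above the line and 97 below it, and the 15 dense sites (black) lie below it, of which 4 pairs have identical counts from shared tags.

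The level of a bin and its difference were then read from separate tags. Each site's tags are deposited in 2 parts. Bins were sorted in the first part by scaled Emerald-negative HpaII tags over the mean of both scaled MspI libraries. This sorting ratio is not the one used above, which has the Emerald-negative MspI library alone. The difference was taken from the second part. Member bins with a sorting ratio under 0.5 (32 bins) stood at 0.39 (0.15 to 0.62), those from 0.5 to 2 (35) at 0.38 (0.21 to 0.55), and those over 2 (32) stood at -0.22 (-0.34 to -0.11). With the parts exchanged the values were 0.52, -0.09 and -0.35, so the middle group changed sign. All bins of the series gave 0.58, 0.09 and -0.38, and 0.58, 0.07 and -0.39. Under both orders, rarely cut member bins were above 0 and highly cut ones below it, as over the whole genome.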

How the data were processed

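Per the labels, HELP tag libraries were made from sorted cells. The deposited files give estimated counts of tags per CCGG position, in 2 parts and their sum, not scaled to depth; the sum was used. Positions are in mm9, per the submitters' processing notes; the aligner was not given in the sources used here. Windows came from a rule stated by position.

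Tags were divided by library totals. Ratios have 95% intervals from Poisson counting error on the log scale; shares have exact (Clopper-Pearson) intervals. Tags carry no molecular identifiers, so intervals cover counting error only. Site scores were 100 × (2/π) × arctan(HpaII/MspI). Fisher's exact test used counts rounded to whole tags, a null odds ratio set by library totals, and Benjamini-Hochberg adjustment over all covered sites or bins. When tested on simulated data with 100 features changed at each size, the share found by adjusted p was 9% (2-fold) and 46% (4-fold) of bins, out of 126106, and 0% and 3% of sites, out of 218697. The exact test matched R 4.3.3 in 200 of 200 tables.

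All windows and flanks were described. Named sites were up to 4 per window with most MspI tags; named bins were the highest and lowest per locus with an MspI difference of at most 0.5, and every called bin. Members and lists were chosen with earlier results of these data known. The split by tag part, the promoter sites and 2 alternatives (a pseudocount in proportion to depth, and bins of whole-tag sites) were chosen after seeing the data. Promoters and gene names are from RefSeq (GRCm38.p6), matched by symbol for 5 of 5 genes. Software was matplotlib 3.10.9 for plots and scipy 1.17.1, numba 0.67.0, pandas 2.3.3 and numpy 2.4.6 under Python 3.11.15.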

Additional observations from a re-analysis of the deposited data

How the results depend on the processing

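Scaling decided the sign and the calls. Scaled to dense sites, the pooled windows stood at 0.56 and the pooled flanks at 0.66, and scaled to isolated sites at -0.64 and -0.54. The low flank of Pou5f1 turned to 0.41 with scaling to dense sites, and the Esrrb flanks to -0.027 (low) and -0.16 (high) with scaling to isolated sites. Scaling to dense sites also gave 112 member sites past 2-fold higher and 1 lower, 9 called sites and 36 called bins (all higher), and median scores of 15.5 (Emerald-high) and 7.77 (Emerald-negative). With at least 5 MspI tags, 159 sites were past 2-fold higher and 57 lower of 547, and sites without an HpaII tag made up 10.6% (Emerald-high) and 13.7% (Emerald-negative); with at least 20, 14 and 1 of 40. Bins of 20 kb gave 0 higher calls, and adjusted p alone gave 5 lower ones. HpaII alone, each tag part, whole-tag sites and leaving out the most tagged site of each stretch moved none of the 15 stretches beyond its interval; requiring 10 MspI tags moved 2 of 15. Thinning the Emerald-negative HpaII library to the Emerald-high total gave 13.4% of sites without an HpaII tag in Emerald-negative cells. Depth limited single sites most: 36 of 281 window sites were covered. No paired analysis was possible because each group had 1 library.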
